A study of Mus musculus with 12 samples.

Results

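Chemokines and their receptors were described in skeletal muscle of the hind limb and in heart, in mice that lack thymidine kinase 2. The genes were taken by symbol from the probe sets annotated to a single gene: the CC ligands (Ccl followed by a digit), the CXC ligands (Cxcl), the fractalkine pair Cx3cl1 and Cx3cr1, the CC and CXC receptors (Ccr and Cxcr) and the atypical receptors (Ackr), each represented by its brightest probe set. This gave 53 of the 18820 genes on the array, namely 19 CC ligands, 13 CXC ligands, 2 genes of the CX3C pair, 10 CC receptors, 6 CXC receptors and 3 atypical receptors. Another 10 probe sets carried several symbols (those of the Ccl21 genes, Ccl27a and Ackr4 and 1 shared by Cxcl16 and Zmynd15) and were not used here.

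Chemokines are small secreted proteins that guide the movement of leukocytes. They bind G protein coupled receptors on the migrating cell, while atypical receptors take ligands up without a migration signal and so shape the gradient. In muscle and heart they are made by endothelial cells, fibroblasts and resident macrophages, and some ligands are induced by interferon or by tissue damage.

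TK2 phosphorylates thymidine and deoxycytidine inside mitochondria, and its loss depletes mitochondrial DNA. Tk2-/- and Tk2+/+ pups were compared at 11 days of age on the C57BL/6 background. The knockout was carried in every tissue and the pups came from matings of heterozygous parents. This gave 4 groups, muscle of Tk2-/- and of Tk2+/+ pups and heart of Tk2-/- and of Tk2+/+ pups, with 3 arrays from 3 mice in each. Sex was read from Xist, the transcript of females, and was not balanced. Xist was above 100 in 2 of 3 Tk2-/- and 1 of 3 Tk2+/+ muscle arrays. In heart it was above 100 in 3 of 3 Tk2-/- and 2 of 3 Tk2+/+ arrays.

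Tk2 signal itself was 64.7, 44.1 and 48.7 in Tk2-/- muscle against 62.9, 68.5 and 63.1 in Tk2+/+ muscle, and 30.1, 46.3 and 31.7 in Tk2-/- heart against 70.2, 73.6 and 81.8 in Tk2+/+ heart. The array labelled Tk2-/- muscle replicate 1 therefore lay within the range of the Tk2+/+ muscle arrays. The sources used here do not say which exons the deletion removes, so these probes may lie outside it. The other Tk2-/- arrays all lay below every Tk2+/+ array, and why this array did not was not tested. Skeletal fibre markers summed to 60899 to 65567 in Tk2-/- muscle and 55382 to 72524 in Tk2+/+ muscle, and cardiomyocyte markers to 44516 to 45579 in Tk2-/- heart and 46680.5 to 61731 in Tk2+/+ heart.

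Both muscle groups held an array that stood apart. Signal of 11 markers of T, B and NK cells summed to 276, 282 and 241 in Tk2-/- muscle, against 1202, 258 and 265 in Tk2+/+ muscle, so Tk2+/+ muscle replicate 1 was far above the other 5 muscle arrays. Signal of 11 neutrophil markers summed to 327, 1789.7 and 423 in Tk2-/- muscle, against 229, 209 and 212 in Tk2+/+ muscle, so Tk2-/- muscle replicate 2 stood far above the rest. Genotype calls of chemokine genes in muscle that were lost without either array are named beside their values.

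**Figure D1:**
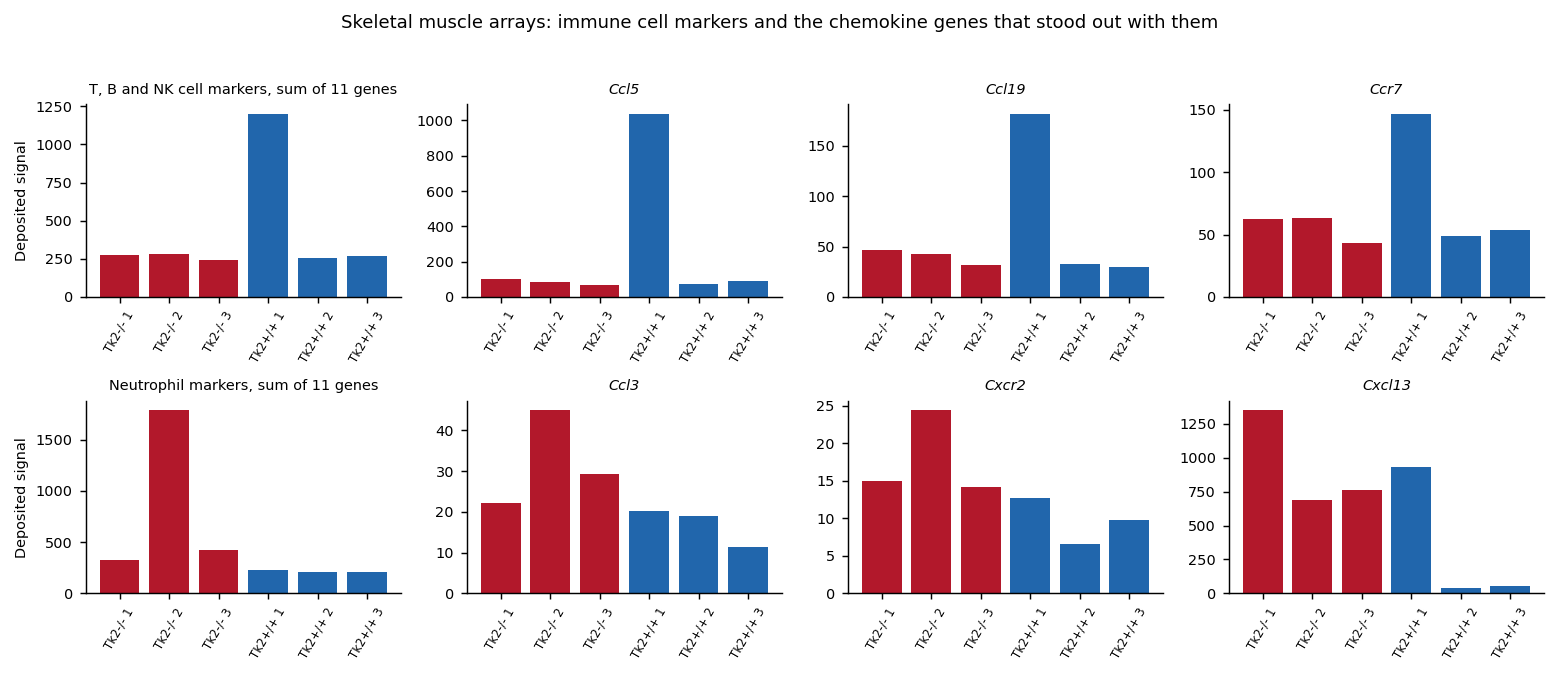
Deposited signal (linear axis) in the 3 Tk2-/- and 3 Tk2+/+ skeletal muscle arrays for the summed T, B and NK cell markers, the summed neutrophil markers and 6 chemokine genes, 1 bar per array. Ccl5, Ccl19 and Ccr7 were highest in Tk2+/+ replicate 1, Ccl3 and Cxcr2 in Tk2-/- replicate 2, and Cxcl13 was high in all 3 Tk2-/- arrays and in Tk2+/+ replicate 1.

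Signals are the deposited linear intensities, and differences are given as log2(signal + 16), Tk2-/- minus Tk2+/+, which understates the change of dim genes. Of the 53 genes, 35 were dim, meaning that none of their 4 group means reached 64. For scale, 44.9% of all genes and 98.8% of 1157 odorant and vomeronasal receptor genes lay under the same limit. The signals of different probe sets cannot be ranked against each other.

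The shares of chemokine genes called in skeletal muscle were near those of all genes, and the share lower in heart was below that of all genes. Of the 53 genes, 5 were higher in Tk2-/- muscle at an adjusted p under 0.05 (background 11.6% of all genes) and 7 were lower (background 10.9%). In heart 0 were higher (background 1.99%) and 15 were lower (background 49%). At an unadjusted p under 0.05 limma had 2 higher and 17 lower in heart. The methods' t-test, adjusted, had 1 higher, Ccl6, and 0 lower in muscle, and 0 higher and 11 lower in heart. Without a single array the muscle counts were 2 higher and 2 lower (without Tk2+/+ replicate 2), 1 higher (without Tk2+/+ replicate 3), 2 higher and 4 lower (without Tk2-/- replicate 2), 4 lower (without Tk2-/- replicate 1 or 3) and 3 higher (without Tk2-/- heart replicate 1), and 3 were higher in heart without Tk2+/+ heart replicate 2. The median difference of the 53 genes was -0.09 in muscle, with -0.02 for all genes, and -0.07 in heart, with -0.28 for all genes. A larger part of the 53 genes than of all genes was dim, so these shares and medians do not compare genes of like signal.

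The deposited heart values were lower over most of the array in Tk2-/- mice. Among all genes that were not dim the median difference was -0.62, beside -0.48 for the 18 chemokine genes that were not dim. Quantile normalization within each tissue brought the median of all genes to 0.0023 in heart, and the values after it are given beside the deposited ones for the genes called in heart. After it 6 of the 53 genes were higher and 8 lower in Tk2-/- muscle (backgrounds 13.8% and 14.8%), and 3 were higher and 11 lower in Tk2-/- heart (backgrounds 13.9% and 17.9%). Upper-quartile scaling, which put the median of all heart genes at 0.16, gave 18 higher and 4 lower in heart, so the heart counts depend on the scaling.

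**Figure D2:**
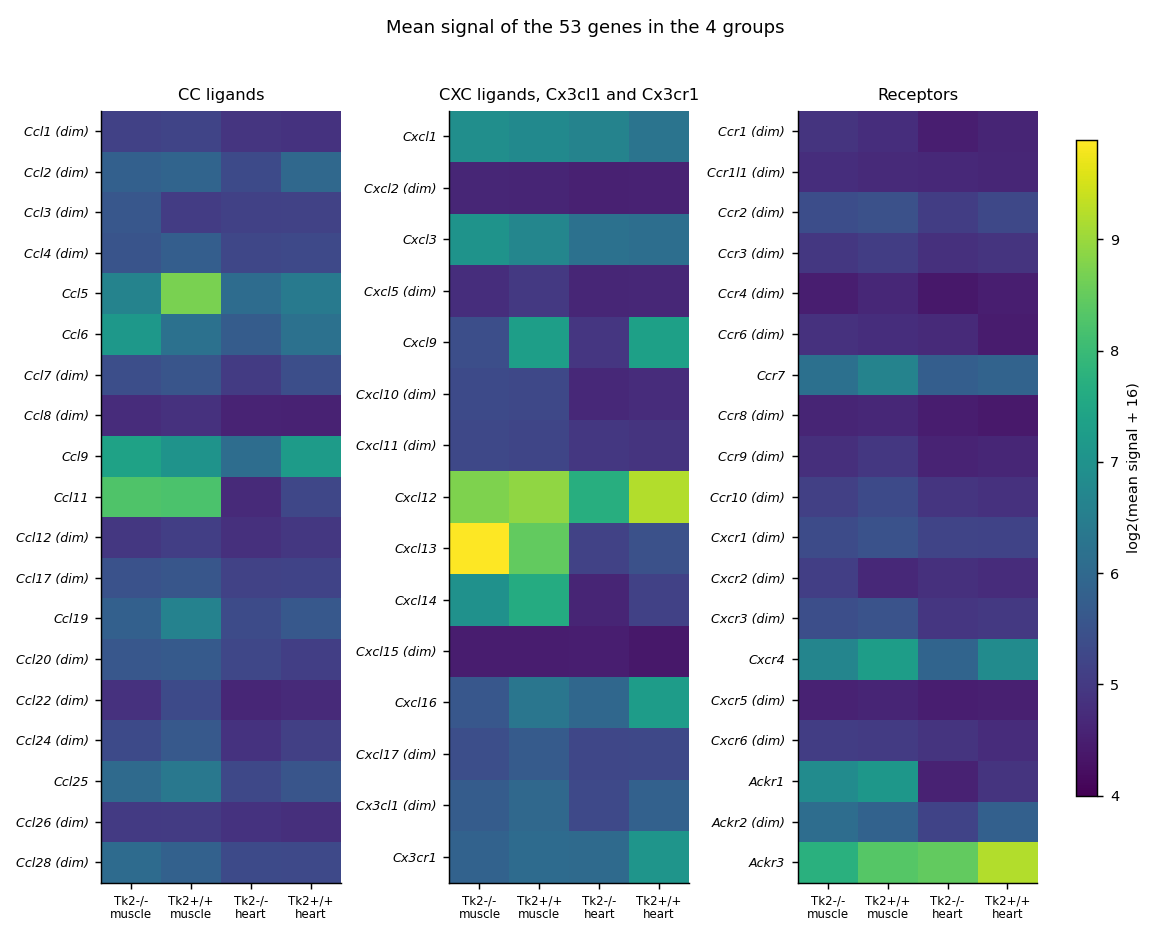
Mean signal of the 53 genes, as log2(mean signal + 16) on a colour scale, in Tk2-/- muscle, Tk2+/+ muscle, Tk2-/- heart and Tk2+/+ heart, each mean over 3 arrays, with rows by role. Rows marked dim had no group mean of 64 or more, which was the case for 35 of the 53 genes; colours compare groups within a row.

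Among the CC ligands, Ccl6 and Ccl9 were higher in Tk2-/- muscle. Both are rodent chemokines of myeloid cells that signal through Ccr1. Ccl6 had signals of 119, 133 and 121 in Tk2-/- muscle, against 60.2, 50.2 and 62.9 in Tk2+/+ muscle. All 3 Tk2-/- arrays lay above all 3 Tk2+/+ arrays, and the difference was 0.93 (SE 0.14, adjusted p = 0.000187). It remained past the threshold without any single array and was 0.91 (adjusted p = 0.00425) without both arrays that stood apart.

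Ccl9 had signals of 134, 164 and 155 in Tk2-/- muscle, against 122, 113 and 105 in Tk2+/+ muscle. Here too the groups were separate, but the step was small, 0.37 (SE 0.12, adjusted p = 0.0404). The call was lost without Tk2+/+ muscle replicate 1, Tk2+/+ muscle replicate 2, Tk2+/+ muscle replicate 3, Tk2-/- muscle replicate 2, Tk2-/- muscle replicate 3 or Tk2-/- heart replicate 1 (log2 difference 0.31 to 0.42, adjusted p = 0.0531 to 0.165).

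In heart the same pair was lower in Tk2-/- mice on the deposited values, and Ccl9 also after quantile normalization. Ccl9 had signals of 49.5, 61.2 and 48.5 in Tk2-/- heart, against 113, 157 and 133 in Tk2+/+ heart, a difference of -1.12 (SE 0.12, adjusted p = 3.92e-06) and of -0.63 (adjusted p = 0.003) after quantile normalization within the tissue. All 3 Tk2-/- hearts were below all 3 Tk2+/+ hearts. Ccl6 had signals of 36.9, 35.4 and 36.7 in Tk2-/- heart, against 39.04, 69.3 and 64.95 in Tk2+/+ heart, with 1 Tk2+/+ heart close to the Tk2-/- range. Its difference of -0.47 (SE 0.14, adjusted p = 0.00939) was -0.15 (adjusted p = 0.45) after quantile normalization, turned to 0.038 (adjusted p = 0.855) under upper-quartile scaling, and was not past the threshold without Tk2+/+ heart replicate 2 (log2 difference -0.35, adjusted p = 0.051).

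Ccl6 and Ccl9 lie next to each other on chromosome 11, with 0 protein coding genes between them in RefSeq. The 250 bases before their start sites are shown because both genes were higher in Tk2-/- muscle; capitals mark letters that match a motif searched on both strands. The motifs were GAS (TTCNNNGAA), the interferon response element (by its consensus, with 2 free letters), AP-1 (TGANTCA), C/EBP (TTGCNNAA), TATAAA and, by name, the NF-kB consensus. The Ccl6 window is chr11:83593088-83593337 and the Ccl9 window chr11:83578637-83578886, both on the minus strand of GRCm38.p6 (RefSeq).
Ccl6: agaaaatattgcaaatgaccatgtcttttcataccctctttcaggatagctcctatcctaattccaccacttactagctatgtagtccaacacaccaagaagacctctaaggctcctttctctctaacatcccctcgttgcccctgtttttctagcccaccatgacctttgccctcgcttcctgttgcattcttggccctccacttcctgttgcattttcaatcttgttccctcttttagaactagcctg
Ccl9: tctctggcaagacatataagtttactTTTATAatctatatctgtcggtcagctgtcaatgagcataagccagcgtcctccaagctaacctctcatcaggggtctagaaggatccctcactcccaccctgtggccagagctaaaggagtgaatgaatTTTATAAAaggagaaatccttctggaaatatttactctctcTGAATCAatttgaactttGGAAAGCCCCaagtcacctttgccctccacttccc
The Ccl6 window held 0 matches. The Ccl9 window held an AP-1 match at position -53, an NF-kB match at -35, and TATAAA or its complement from -224, -94 and -92, the last pair overlapping. Of 32851 mouse promoter windows of this length, 6.75% held the AP-1 letters, 3.90% the NF-kB consensus and 12.4% TATAAA. The longest run shared by the 2 windows was 13 bases, gccctccacttcc, from -55 in Ccl6 and from -14 in Ccl9. These matches describe letters and show no binding.

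Macrophage markers were mixed in muscle and mostly lower in heart. In muscle 4 of 15 were higher (background 11.6%) and 1 lower (background 10.9%) in Tk2-/- mice, with a list median of 0.0018 and sums of 2211 to 2604 in Tk2-/- muscle and 1977 to 2464 in Tk2+/+ muscle, which overlap. The count higher was 2 without Tk2+/+ replicate 2 or 3 or without Tk2-/- replicate 2 or 3. Cd68, a lysosomal protein of macrophages, averaged 248 ± 32.6 in Tk2-/- muscle and 121 ± 7.31 in Tk2+/+ muscle, while Mrc1, the mannose receptor of resident macrophages, averaged 161 ± 5.79 in Tk2-/- muscle and 287 ± 34.5 in Tk2+/+ muscle (SD, n = 3 each). Their differences were 0.94 (SE 0.11, adjusted p = 2.96e-05) for Cd68 and -0.77 (SE 0.12, adjusted p = 0.000369) for Mrc1. Adgre1, which encodes the F4/80 antigen, had -0.26 (adjusted p = 0.262), and C1qa, C1qb, C1qc and Lyve1 lay between -0.036 and 0.017 and were not called. In heart 13 of 15 were lower (background 49%) and 0 higher, or 11 lower (background 17.9%) and 2 higher after quantile normalization, with sums of 1275 to 1472 in Tk2-/- heart and 2789.5 to 3309 in Tk2+/+ heart. Aif1, Cd14 and Fcgr1 of this list were dim throughout. The part of these cells in the chemokine values was not tested, and in whole tissue fewer cells of a type and less RNA per cell cannot be told apart.

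Ccl5, which T and NK cells make and which attracts T cells, and Ccl19, the Ccr7 ligand of lymphoid tissue, were set apart by 1 array. Ccl5 had signals of 100.5, 84.5 and 66.3 in Tk2-/- muscle, against 1039, 73.2 and 88.03 in Tk2+/+ muscle. Its difference was -1.12 (SE 0.62, adjusted p = 0.242), and 0.036 (adjusted p = 0.946) without Tk2+/+ replicate 1. Ccl19 had signals of 46.9, 42.3 and 31.4 in Tk2-/- muscle, against 182, 32.6 and 30.02 in Tk2+/+ muscle, a difference of -0.45 (SE 0.39, adjusted p = 0.498), and 0.24 (adjusted p = 0.44) without that array. The 5 Ccl19 probe sets may share sequence with near-identical gene copies, so the source of its signal is uncertain. Ccl22, a dim Ccr4 ligand of dendritic cells, reached 46.1 in the same array and 7.57 to 16.7 in the other 11.

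In heart Ccl5 had signals of 48.6, 61.3 and 46.8 in Tk2-/- mice, against 55.6, 90.2 and 59.7 in Tk2+/+ mice, and Ccl19 25.2, 23.9 and 24.9 in Tk2-/- mice, against 22.2, 31.5 and 46.4 in Tk2+/+ mice. Both overlapped and neither passed the test (adjusted p = 0.746 and 0.646). Ccl25, the Ccr9 ligand of thymus and gut, had signals of 54.3, 47.1 and 46.01 in Tk2-/- muscle, against 62.3, 76.2 and 59.01 in Tk2+/+ muscle. All 3 Tk2-/- arrays lay below all 3 Tk2+/+ arrays and the difference was -0.33 (SE 0.12, adjusted p = 0.0637), or -0.27 (adjusted p = 0.0364) after quantile normalization within the tissue.

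Ccl11, eotaxin, which attracts eosinophils through Ccr3, did not separate the genotypes in muscle but did in heart. It had signals of 343, 282 and 247 in Tk2-/- muscle, against 265, 325 and 257 in Tk2+/+ muscle, a difference of 0.035 (SE 0.13, adjusted p = 0.902). In heart it was near the floor of the array at 9.93, 12.1 and 8.49 in Tk2-/- mice, against 24.4, 18.9 and 23.9 in Tk2+/+ mice, without overlap. That difference was -0.55 (SE 0.13, adjusted p = 0.00152), and -0.49 (adjusted p = 0.00334) after quantile normalization.

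The monocyte attractants Ccl2 and Ccl7, ligands of Ccr2, were dim and lower in Tk2-/- heart. Ccl2 had signals of 28.2, 27.2 and 17.3 in Tk2-/- heart, against 41.96, 56.9 and 44.4 in Tk2+/+ heart, a difference of -0.67 (SE 0.12, adjusted p = 0.000285), or -0.46 after quantile normalization. Ccl7 had 19.6, 17.5 and 11.8 in Tk2-/- heart, against 29.1, 28.3 and 21.8 in Tk2+/+ heart, a difference of -0.40 (SE 0.11, adjusted p = 0.00605), or -0.31 after quantile normalization. Neither pair of groups overlapped, and both calls held after that normalization.

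Ccl3, a macrophage inflammatory protein also made by neutrophils, was dim and was the remaining CC ligand called in muscle. It had signals of 22.1, 44.98 and 29.2 in Tk2-/- muscle, against 20.1, 19.01 and 11.5 in Tk2+/+ muscle. The groups did not overlap, with the highest signal in the array rich in neutrophil markers. Its difference was 0.53 (SE 0.15, adjusted p = 0.0208) and the call was lost without Tk2+/+ muscle replicate 3 or Tk2-/- muscle replicate 2 (log2 difference 0.35 to 0.41, adjusted p = 0.102 to 0.124).

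Of the 19 CC ligands, 3 were higher and 0 lower in Tk2-/- muscle, and 0 were higher and 5 lower in Tk2-/- heart, beside 11.6% higher and 10.9% lower in muscle and 1.99% higher and 49% lower in heart for all genes. The dim ligands with no genotype call on the deposited values were Ccl1 (a Ccr8 ligand), Ccl4 (a macrophage inflammatory protein), Ccl8 and Ccl12 (monocyte attractants), Ccl17 and Ccl22 (Ccr4 ligands), Ccl20 (Ccr6 ligand), Ccl24 and Ccl26 (eotaxins) and Ccl28 (Ccr10 ligand). Over all 13 dim CC ligands the highest group mean lay between 12.8 and 50.9.

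Cxcl9 fell furthest of the CXC ligands in both tissues. It is the interferon gamma induced ligand of Cxcr3 on T and NK cells. Cxcl9 signal was 18.9, 28.4 and 32.1 in Tk2-/- muscle, against 218, 116 and 92.8 in Tk2+/+ muscle. In heart it had 11.96, 21.5 and 9.92 in Tk2-/- mice, against 163, 106 and 175 in Tk2+/+ mice. The genotypes were separate in both tissues, with 32.1 in the highest of the 6 Tk2-/- arrays and 92.8 in the lowest of the 6 Tk2+/+ arrays.

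The Cxcl9 difference was -1.83 (SE 0.24, adjusted p = 6.88e-05) in muscle and -2.42 (SE 0.24, adjusted p = 2.36e-06) in heart, or -1.81 in muscle and -2.13 in heart after quantile normalization within each tissue. Both calls remained without any single array. Tk2+/+ muscle replicate 1, rich in lymphocyte markers, had the highest muscle value, and without it the muscle difference was -1.51 (adjusted p = 0.000149). The other interferon induced Cxcr3 ligands, Cxcl10 and Cxcl11, were dim and not called in either tissue, and Cxcl10 had signals of 29.7, 20.7 and 22.4 in Tk2-/- muscle, against 22.9, 23.2 and 21.6 in Tk2+/+ muscle, which overlap.

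Cxcl13, the ligand of Cxcr5 that draws B cells into follicles, had the largest difference of the 53 genes in muscle. The Cxcl13 arrays read 1352, 685 and 760.0 in Tk2-/- muscle, against 933, 39.5 and 54.5 in Tk2+/+ muscle. The groups overlapped because Tk2+/+ replicate 1 was as high as the Tk2-/- arrays, while the other Tk2+/+ arrays were more than an order of magnitude lower. The difference was 2.55 (SE 0.70, adjusted p = 0.0158), and 3.86 (adjusted p = 4.14e-08) without Tk2+/+ replicate 1. The call was lost without Tk2+/+ muscle replicate 2, Tk2+/+ muscle replicate 3 or Tk2-/- muscle replicate 1 (log2 difference 1.81 to 2.25, adjusted p = 0.057 to 0.0863), the array labelled Tk2-/- replicate 1 being the highest of all. It was also lost with array weights, at 1.63 (adjusted p = 0.106), with a trend and robust prior (adjusted p = 0.0994), with the muscle samples alone (adjusted p = 0.0544) and with the methods' t-test (adjusted p = 0.319).

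Of 11 T, B and NK cell markers 0 were called in muscle in either direction by limma (1 at an unadjusted p under 0.05, and 0 without Tk2+/+ replicate 1), their sums were 241 to 282 in Tk2-/- muscle, and 9 of the 11 were dim in all 4 groups. In heart Cxcl13 was near the floor, at 19.4, 19.9 and 20.8 in Tk2-/- mice, against 29.4, 29.3 and 25.2 in Tk2+/+ mice, a difference of -0.29 (SE 0.70, adjusted p = 0.786). Those groups did not overlap, but the fit shares 1 spread over the 4 groups and that spread is wide for this gene.

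The bases before Cxcl9 and Cxcl13 are shown as the genes with the lowest and highest muscle difference, with the same motifs in capitals. The windows are chr5:92328080-92328329 on the minus strand and chr5:95956689-95956938 on the plus strand of GRCm38.p6.
Cxcl9: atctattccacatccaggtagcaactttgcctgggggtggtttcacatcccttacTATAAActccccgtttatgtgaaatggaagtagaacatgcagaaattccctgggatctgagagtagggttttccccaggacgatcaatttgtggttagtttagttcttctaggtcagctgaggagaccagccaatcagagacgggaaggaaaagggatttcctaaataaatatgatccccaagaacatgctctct
Cxcl13: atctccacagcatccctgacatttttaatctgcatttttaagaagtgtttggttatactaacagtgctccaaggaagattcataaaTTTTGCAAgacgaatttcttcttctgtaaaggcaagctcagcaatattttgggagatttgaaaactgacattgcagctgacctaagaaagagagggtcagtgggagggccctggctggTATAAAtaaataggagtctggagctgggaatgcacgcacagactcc
Cxcl9 held TATAAA at position -195 and no GAS or interferon response letters in this window, which says nothing of sites further away. Cxcl13 held TATAAA at -46 and a C/EBP match at -164. GAS letters occurred in 7.02% of the 32851 windows, interferon response letters in 2.98% and C/EBP letters in 9.56%. RefSeq windows were matched for 39 of the 53 genes, of which 4 held GAS, 3 interferon response, 4 AP-1, 2 C/EBP, 9 NF-kB and 12 TATAAA letters.

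Cxcl16, the membrane-bound Cxcr6 ligand and scavenger receptor of macrophages and endothelium, was lower in Tk2-/- mice in both tissues. Its signals were 31.96, 23.3 and 41.3 in Tk2-/- muscle, against 75.96, 61.4 and 51.8 in Tk2+/+ muscle, and 47.4, 53.2 and 37.9 in Tk2-/- heart, against 146, 116 and 147 in Tk2+/+ heart. The groups did not overlap in either tissue. The difference was -0.72 (SE 0.15, adjusted p = 0.00288) in muscle and -1.29 (SE 0.15, adjusted p = 7.47e-06) in heart, where it was -0.82 (adjusted p = 0.000685) after quantile normalization. Without both muscle arrays that stood apart the muscle value was -0.47 (adjusted p = 0.0845).

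Cxcl12, the stromal ligand of Cxcr4 that retains leukocytes and progenitors, was lower in Tk2-/- heart. Cxcl12 signal was 157, 269 and 143 in Tk2-/- heart, against 589, 583 and 562 in Tk2+/+ heart, with no overlap. The difference was -1.58 (SE 0.18, adjusted p = 4.97e-06), and -0.91 (adjusted p = 0.000729) after quantile normalization. In muscle it had 468, 423 and 358 in Tk2-/- mice, against 407, 525 and 469.7 in Tk2+/+ mice, which overlap, a difference of -0.16 (SE 0.18, adjusted p = 0.619).

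Cxcl14, a chemokine of epithelium and stroma, was lower in Tk2-/- muscle. Cxcl14 signal was 118, 117 and 94.5 in Tk2-/- muscle, against 164, 219 and 161 in Tk2+/+ muscle, with no overlap. The difference was -0.64 (SE 0.17, adjusted p = 0.0108), and the call was lost without Tk2+/+ muscle replicate 2 or Tk2-/- muscle replicate 3 (log2 difference -0.55 to -0.51, adjusted p = 0.0531 to 0.0559). In heart it was near the floor at 8.76, 11.2 and 5.45 in Tk2-/- mice, against 11.1, 28.2 and 18.2 in Tk2+/+ mice, which overlap slightly. The heart difference of -0.50 (SE 0.17, adjusted p = 0.0183) was -0.46 (adjusted p = 0.0204) after quantile normalization. The heart call was lost without Tk2+/+ heart replicate 2 or Tk2-/- heart replicate 3 (log2 difference -0.41 to -0.32, adjusted p = 0.0866 to 0.103). It was also lost under median centring, at -0.31 (adjusted p = 0.105), and under upper-quartile scaling, at -0.23 (adjusted p = 0.234). The methods' t-test did not make the call either (adjusted p = 0.164).

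Most fibroblast markers were also lower in both tissues, and endothelial markers in heart on the deposited values. In muscle 7 of 10 fibroblast markers were lower (background 10.9%) and 1 higher (background 11.6%), with sums of 7667 to 9582 in Tk2-/- muscle and 13681 to 15661 in Tk2+/+ muscle. The marker higher in muscle was Pdgfra, at 0.39 (SE 0.11, adjusted p = 0.017). The count higher was 0 without Tk2+/+ replicate 1 or Tk2-/- replicate 1 or 2. In heart 10 of 10 were lower (background 49%), with sums of 5498 to 6294 in Tk2-/- heart and 10644 to 13328 in Tk2+/+ heart. After quantile normalization 8 were lower (background 17.9%) and 1, again Pdgfra, was higher (background 13.9%), at 0.28 (adjusted p = 0.0367). Of 10 endothelial markers 1 was lower (background 10.9%) and 1 higher (background 11.6%) in muscle. In heart 10 were lower (background 49%), or 4 lower (background 17.9%) and 1 higher (background 13.9%) after quantile normalization. None of these 20 markers was dim, and the part of stromal cells in the Cxcl12, Cxcl14 and Cxcl16 values was not tested. Of 6 adipocyte markers 5 were higher in Tk2-/- muscle (background 11.6%) and 1, the dim Lep, was lower, with sums of 3539 to 4957 in Tk2-/- muscle and 2029 to 2509.7 in Tk2+/+ muscle, and 4 to 5 were higher without any single array. The part of adipocytes in the muscle values was not tested either.

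The neutrophil attractants Cxcl1 and Cxcl3, ligands of Cxcr2, were not lower in heart. Cxcl1 had signals of 81.8, 84.7 and 83.95 in Tk2-/- heart, against 53.1, 91.1 and 37.4 in Tk2+/+ heart. The groups overlapped because of 1 high Tk2+/+ heart. The difference was 0.44 (SE 0.18, adjusted p = 0.0555) on the deposited values and passed the test after quantile normalization, at 0.89 (adjusted p = 0.0019). Cxcl3 had 60.7, 53.7 and 57.7 in Tk2-/- heart, against 47.9, 81.6 and 31.1 in Tk2+/+ heart, a difference of 0.14 (SE 0.20, adjusted p = 0.605), or 0.53 (adjusted p = 0.0325) after quantile normalization.

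In muscle the same ligands overlapped. Cxcl1 had signals of 117, 107 and 90.2 in Tk2-/- muscle, against 97.2, 87.3 and 103 in Tk2+/+ muscle. Cxcl3 had 131, 116 and 93.6 in Tk2-/- muscle, against 87.7, 99.9 and 76.97 in Tk2+/+ muscle. Neither passed the test (adjusted p = 0.779 and 0.323), although 6 of 11 neutrophil markers were higher in Tk2-/- muscle (background 11.6%), 3 of 11 without any one of the 3 Tk2+/+ muscle arrays, 4 of 11 without Tk2-/- replicate 2, and 7 of the 11 were dim.

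Of the 13 CXC ligands, 1 was higher and 4 lower in Tk2-/- muscle, and 0 were higher and 4 lower in Tk2-/- heart, beside 11.6% higher and 10.9% lower in muscle and 49% lower in heart for all genes. Cxcl2 and Cxcl5 (neutrophil attractants), Cxcl15 (a mouse chemokine of lung epithelium), Cxcl10, Cxcl11 and Cxcl17 (a mucosal chemokine) were dim, with a highest group mean of 6.47 to 35.7. Cxcl17 was the only one of these called, with signals of 27.9, 26.8 and 25.8 in Tk2-/- muscle, against 39.3, 34.1 and 33.6 in Tk2+/+ muscle, and a difference of -0.27 (SE 0.089, adjusted p = 0.0403), which 4 of the 12 fits without a single array kept. The call was lost without either array that stood apart, at -0.22 (adjusted p = 0.176) without Tk2+/+ replicate 1 and -0.27 (adjusted p = 0.112) without Tk2-/- replicate 2.

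**Figure D3:**
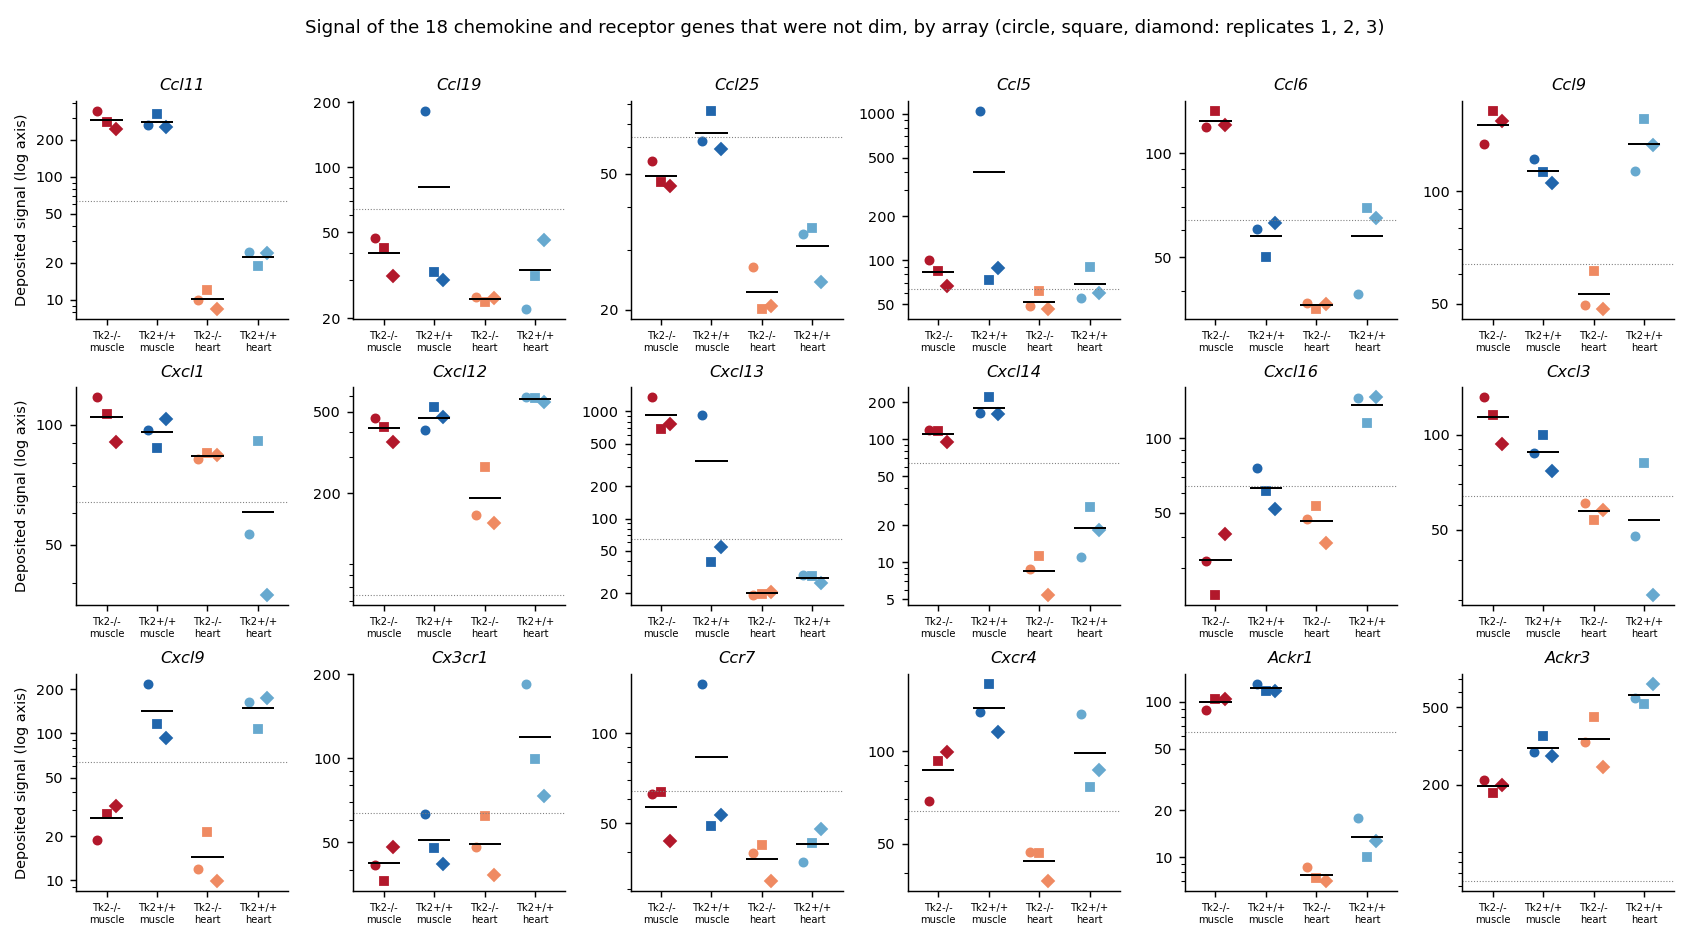
Deposited signal (log axis, its range set for each gene) of the 18 genes that were not dim, with 3 arrays per group in Tk2-/- muscle, Tk2+/+ muscle, Tk2-/- heart and Tk2+/+ heart; black bars are group means and the dotted line marks 64. Cxcl9 was lower in all 6 Tk2-/- arrays than in all 6 Tk2+/+ arrays, Ccl6 was higher in all 3 Tk2-/- muscle arrays, and Ccl5, Ccl19 and Ccr7 were set apart by Tk2+/+ muscle replicate 1.

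The fractalkine receptor Cx3cr1, a marker of monocytes and resident macrophages, was lower in Tk2-/- heart. Cx3cr1 signal was 48.2, 62.4 and 38.1 in Tk2-/- heart, against 185, 99.6 and 73.3 in Tk2+/+ heart. The groups did not overlap, although the Tk2+/+ hearts spread widely. The difference was -0.98 (SE 0.23, adjusted p = 0.00177), and -0.53 (adjusted p = 0.0692) after quantile normalization within the tissue. In muscle it had 41.5, 36.4 and 48.3 in Tk2-/- mice, against 63.2, 47.95 and 41.8 in Tk2+/+ mice, which overlap (adjusted p = 0.64).

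Its ligand Cx3cl1, a membrane-tethered chemokine of endothelium and neurons, was dim and lower in both tissues on the deposited values. Its signals were 37.3, 35.1 and 37.2 in Tk2-/- muscle, against 43.3, 50.8 and 47.1 in Tk2+/+ muscle, and 22.96, 25.02 and 22.3 in Tk2-/- heart, against 39.8, 41.8 and 40.8 in Tk2+/+ heart. Again neither tissue showed overlap. The difference was -0.26 (SE 0.086, adjusted p = 0.0401) in muscle, -0.21 (adjusted p = 0.0635) after quantile normalization and -0.24 (adjusted p = 0.143) without Tk2-/- replicate 2, and was called in 5 of 12 fits without a single array. In heart it was -0.53 (SE 0.086, adjusted p = 0.000103) and -0.33 (adjusted p = 0.00592) after quantile normalization.

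Among the receptors, Cxcr4, the Cxcl12 receptor of leukocytes and progenitors, was lower in Tk2-/- mice in both tissues. Cxcr4 signal was 68.8, 93.2 and 99.3 in Tk2-/- muscle, against 134, 166 and 115 in Tk2+/+ muscle, and 47.1, 46.8 and 37.8 in Tk2-/- heart, against 133, 76.7 and 87.2 in Tk2+/+ heart. Neither tissue showed overlap. The difference was -0.59 (SE 0.17, adjusted p = 0.0224) in muscle and -0.91 (SE 0.17, adjusted p = 0.000319) in heart, where it was -0.48 (adjusted p = 0.0318) after quantile normalization. The muscle call was lost without Tk2+/+ muscle replicate 1, Tk2+/+ muscle replicate 2 or Tk2-/- muscle replicate 1 (log2 difference -0.60 to -0.45, adjusted p = 0.0517 to 0.101).

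Ccr7, which brings dendritic cells and naive T cells to lymph nodes, followed the array with the lymphocyte markers. Ccr7 signal was 62.7, 63.4 and 43.4 in Tk2-/- muscle, against 147, 48.8 and 53.3 in Tk2+/+ muscle. The difference was -0.33 (SE 0.25, adjusted p = 0.443), and 0.10 (adjusted p = 0.764) without Tk2+/+ replicate 1. In heart it had 39.8, 42.2 and 31.9 in Tk2-/- mice, against 36.9, 42.7 and 47.8 in Tk2+/+ mice (adjusted p = 0.758). Cxcr3, the dim receptor for Cxcl9 on T and NK cells, was also highest in Tk2+/+ muscle replicate 1, at 42.4, and had 26.8, 29.3 and 23.3 in Tk2-/- muscle.

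Cxcr2, the neutrophil receptor for Cxcl1 and Cxcl3, was dim and higher in Tk2-/- muscle. Cxcr2 signal was 15.04, 24.4 and 14.2 in Tk2-/- muscle, against 12.7, 6.54 and 9.74 in Tk2+/+ muscle, with its highest value in the array rich in neutrophil markers. Genotypes were separate, and the difference was 0.40 (SE 0.13, adjusted p = 0.0424). The call was lost without Tk2+/+ muscle replicate 2, Tk2+/+ muscle replicate 3, Tk2-/- muscle replicate 2, Tk2+/+ heart replicate 1 or Tk2-/- heart replicate 1 (log2 difference 0.26 to 0.40, adjusted p = 0.051 to 0.231).

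Of the 10 CC receptors, 0 were called in either genotype contrast by limma on the deposited values (0 in muscle and 2 in heart at an unadjusted p under 0.05). The methods' t-test, adjusted, called 1 in heart, Ccr4, with signals of 5.11, 4.92 and 4.91 in Tk2-/- heart, against 6.46, 7.03 and 6.20 in Tk2+/+ heart. Apart from Ccr7 they were dim, with a highest group mean of 9.26 to 28.0: Ccr1 and the related Ccr1l1, Ccr2 of monocytes, Ccr3 of eosinophils, Ccr4 and Ccr8 of T cells, Ccr6, the gut homing receptor Ccr9 and the skin homing receptor Ccr10. Ccr6 was higher in Tk2-/- heart after quantile normalization, at 0.29 (adjusted p = 0.0238), and 0.26 (SE 0.11, adjusted p = 0.0613) without it. Cxcr1 of neutrophils, Cxcr5 of B cells and Cxcr6 of T cells were dim and not called.

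The 3 atypical receptors were lower in Tk2-/- heart on the deposited values, and only Ackr2 passed the test there after quantile normalization. Ackr3, which scavenges Cxcl12, had signals of 212, 182 and 198 in Tk2-/- muscle, against 293, 355 and 282 in Tk2+/+ muscle, and 329.7, 446 and 247 in Tk2-/- heart, against 559, 519 and 660.2 in Tk2+/+ heart. The groups did not overlap in either tissue. The muscle difference was -0.61 (SE 0.17, adjusted p = 0.0149) and was lost without Tk2+/+ muscle replicate 2 or Tk2-/- muscle replicate 2 (log2 difference -0.55 to -0.51, adjusted p = 0.0637 to 0.0665). The heart difference of -0.77 (SE 0.17, adjusted p = 0.00096) was -0.086 (adjusted p = 0.643) after quantile normalization.

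Ackr2, a scavenger of inflammatory CC chemokines on lymphatic endothelium, was dim. It had signals of 23.2, 22.3 and 15.5 in Tk2-/- heart, against 47.5, 32.2 and 39.1 in Tk2+/+ heart, with no overlap, a difference of -0.61 (SE 0.12, adjusted p = 0.000387) and of -0.44 (adjusted p = 0.00522) after quantile normalization. In muscle it had 57.8, 50.7 and 49.9 in Tk2-/- mice, against 43.7, 38.9 and 43.8 in Tk2+/+ mice, higher in all 3 Tk2-/- arrays. That difference was 0.24 (SE 0.12, adjusted p = 0.173), and 0.29 (adjusted p = 0.0438) after quantile normalization.

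Ackr1, the chemokine binding protein of venules and red cells, had signals of 88.3, 105 and 105 in Tk2-/- muscle, against 131, 118 and 117 in Tk2+/+ muscle, a difference of -0.26 (SE 0.11, adjusted p = 0.103). In heart it was near the floor at 8.68, 7.31 and 7.01 in Tk2-/- mice, against 17.9, 10.03 and 12.7 in Tk2+/+ mice, without overlap. The heart difference was -0.31 (SE 0.11, adjusted p = 0.0252), -0.29 (adjusted p = 0.0689) after quantile normalization, and was lost without Tk2+/+ heart replicate 1, Tk2-/- heart replicate 2 or Tk2-/- heart replicate 3 (log2 difference -0.30 to -0.21, adjusted p = 0.0608 to 0.152).

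**Figure D4:**
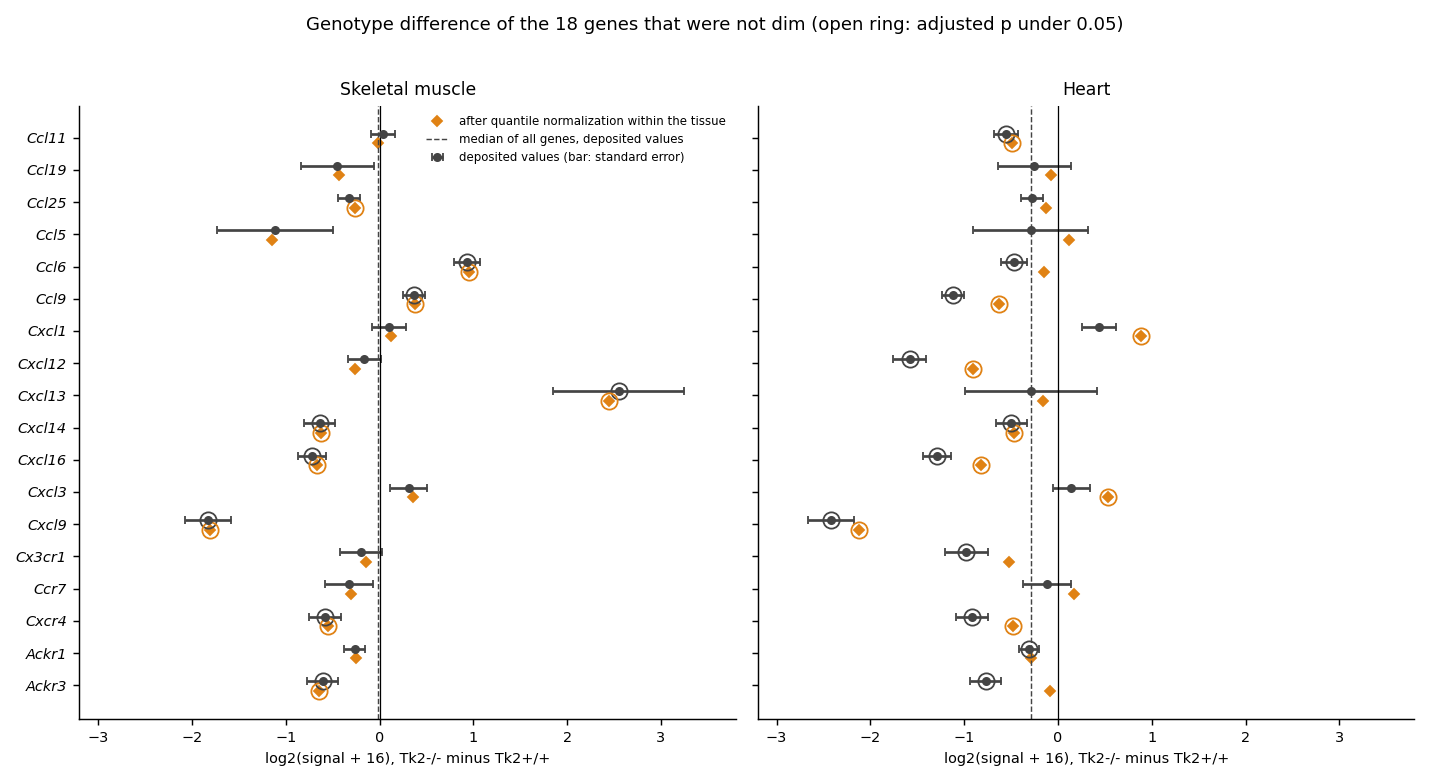
Difference in log2(signal + 16), Tk2-/- minus Tk2+/+, for the 18 genes that were not dim, in skeletal muscle and heart; dark circles are deposited values with the standard error, orange diamonds the values after quantile normalization within the tissue, rings mark an adjusted p under 0.05 and the dashed line is the median of all genes (-0.02 in muscle, -0.28 in heart). Cxcl9 and Cxcl16 were lower in both tissues on both scalings, Ccl6 was higher in muscle on both, and the Ccl6, Ackr3, Cx3cr1 and Ackr1 calls in heart were lost after quantile normalization.

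The genotype difference itself differed between the tissues for 9 of the 53 genes, in each case more positive in muscle than in heart (background 41.3%), with 0 the other way by limma (background 1.39%; 0 also at an unadjusted p under 0.05). Without Tk2+/+ heart replicate 2 it was 1 the other way. The muscle minus heart differences of the genotype effect were 2.83 (SE 0.99, adjusted p = 0.0306) for Cxcl13, 1.49 (SE 0.17, adjusted p = 4.77e-05) for Ccl9, 1.42 (SE 0.25, adjusted p = 0.000469) for Cxcl12 and 1.40 (SE 0.20, adjusted p = 0.000138) for Ccl6. Those of Ackr2, Ccl11, Cxcl16, Ccl2 and Ccl3 lay between 0.56 and 0.85. After quantile normalization within each tissue 3 remained, Ccl6 at 1.11 (adjusted p = 0.00475), Ccl9 at 1.003 (adjusted p = 0.00528) and Ackr2 at 0.73 (adjusted p = 0.00717), and Cxcl17 was called the other way at -0.33 (adjusted p = 0.0314). Cxcl13 was past the threshold in 5 of 12 fits without a single array, and Cxcl16 and Ccl3 in 4 each.

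Between the tissues of Tk2+/+ mice, 24 of the 53 genes were higher in muscle than in heart (background 30.6%) and 3 were lower (background 18.4%). Ccl11, Cxcl14 and Ackr1 had the largest excess in muscle among the genes that were not dim. Their muscle minus heart differences were 2.95 (SE 0.13, adjusted p = 4.09e-11) for Ccl11, 2.50 (SE 0.17, adjusted p = 8.80e-09) for Cxcl14 and 2.23 (SE 0.11, adjusted p = 2.33e-10) for Ackr1, and the same held among the Tk2-/- arrays in that all 3 muscle signals of each gene lay above all 3 heart signals. Cxcl13 was 1.82 (SE 0.70, adjusted p = 0.0434) higher, but 0.51 (adjusted p = 0.0678) without Tk2+/+ muscle replicate 1.

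The 3 genes higher in Tk2+/+ heart were Cxcl16 at -0.95 (SE 0.15, adjusted p = 0.000147), Cx3cr1 at -0.94 (SE 0.23, adjusted p = 0.0036) and Ackr3 at -0.87 (SE 0.17, adjusted p = 0.000644). None of their Tk2+/+ groups overlapped between the tissues. Of the 24 genes higher in muscle 16 were dim, and with quantile normalization over the 12 arrays 8 were higher in muscle, so the count depends on the scaling. Without Tk2+/+ heart replicate 3 it was 15.

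Other chemokine family genes whose symbols fall outside the rule were measured for 7 of 8 listed. Pf4, a platelet chemokine, averaged 118 ± 16.8 in Tk2-/- muscle and 205 ± 29.6 in Tk2+/+ muscle, and 77.6 ± 10.3 in Tk2-/- heart and 243 ± 33.98 in Tk2+/+ heart (SD, n = 3 each). Its differences were -0.71 (SE 0.13, adjusted p = 0.00115) in muscle and -1.47 (SE 0.13, adjusted p = 1.25e-06) in heart, where it was -0.87 (adjusted p = 0.000136) after quantile normalization. Ppbp, the other platelet chemokine, differed by -1.78 (SE 0.32, adjusted p = 0.000209) in heart, or -1.24 (adjusted p = 0.0194) after quantile normalization. Cmklr1, the chemerin receptor, differed there by -1.06 (SE 0.11, adjusted p = 2.46e-06), or -0.43 (adjusted p = 0.00484). The remaining 4 genes were called in neither tissue on the deposited values, and Ccrl2, an atypical chemerin receptor, was higher after quantile normalization, at 0.47 (adjusted p = 0.0308) in muscle and 0.60 (adjusted p = 0.00841) in heart. Of 4 measured red blood cell markers, 2 of them dim, 3 were lower in Tk2-/- heart (background 49%). After quantile normalization 2 were lower (background 17.9%). Their sums were 451 to 757 in Tk2-/- heart and 1172 to 1960 in Tk2+/+ heart. In muscle 0 were called. The part of blood in the Pf4, Ppbp and Ackr1 values was not tested.

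Of 50 measured genes that relay chemokine receptor signals, 2 were higher (background 11.6%) and 7 lower (background 10.9%) in Tk2-/- muscle, with a median difference of -0.011. Leaving out a single array gave 0 to 5 higher and 3 to 9 lower, with 0 higher without Tk2+/+ replicate 3 or Tk2-/- replicate 2 and 3 lower without Tk2+/+ replicate 1. In Tk2-/- heart 0 were higher (background 1.99%) and 39 lower (background 49%), or 5 higher (background 13.9%) and 15 lower (background 17.9%) after quantile normalization. Elmo1, an adaptor of Rac activation, differed by -0.61 (SE 0.12, adjusted p = 0.00131) in muscle and -1.13 (SE 0.12, adjusted p = 2.62e-06) in heart, or -0.59 (adjusted p = 0.000136) in heart after quantile normalization. Gnai2, the inhibitory G protein subunit that these receptors use, averaged 1022 ± 52.04 in Tk2-/- muscle and 1478 ± 186 in Tk2+/+ muscle (SD, n = 3 each), a difference of -0.52 (SE 0.12, adjusted p = 0.00464).

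Of 23 measured cytokines, receptors and transcription factors that induce chemokines, 4 were higher (background 11.6%) and 1 lower (background 10.9%) in Tk2-/- muscle. Leaving out a single array gave 3 to 5 higher and 1 to 2 lower. Of the 23 genes 9 were dim, namely Tnf, Il1a, Il1b, Il6, Il17a, Ifng, Ifnb1, Relb and Tlr2. In Tk2-/- heart 0 were higher (background 1.99%) and 15 lower (background 49%), or 3 higher (background 13.9%) and 4 lower (background 17.9%) after quantile normalization. Nfkbia, the NF-kB inhibitor that NF-kB itself induces, averaged 924 ± 171 in Tk2-/- muscle and 345 ± 44.4 in Tk2+/+ muscle, a difference of 1.37 (SE 0.16, adjusted p = 2.16e-05). Tlr4, the endotoxin receptor, differed there by 0.998 (SE 0.11, adjusted p = 1.04e-05). In heart Nfkbia had 0.21 (adjusted p = 0.309) and Tlr4 0.18 (adjusted p = 0.178) on the deposited values. After quantile normalization both were higher in Tk2-/- heart, Nfkbia at 0.90 (adjusted p = 0.00209) and Tlr4 at 0.81 (adjusted p = 2.99e-05). The chains of the interferon gamma receptor moved apart in muscle, with Ifngr1 at 0.72 (SE 0.12, adjusted p = 0.000373) and Ifngr2 at -0.76 (SE 0.13, adjusted p = 0.000505), and Ifngr2 differed by -0.94 (SE 0.13, adjusted p = 2.38e-05) in heart, -0.38 (adjusted p = 0.00772) after quantile normalization.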

How the data were processed

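Gene expression was measured in 12 RNA samples on Mouse Gene 1.1 ST arrays (total RNA, Ambion WT Expression labelling), 3 mice per group. The authors deposited linear signal intensities made with Affymetrix Expression Console and PLIER; the settings are not given in the sources used here, and the values can shift between groups. Of 35556 probe sets 21218 had 1 gene symbol, 1881 several and 12457 none; 21185 identifiers matched RefSeq. The brightest of several probe sets represented a gene, giving 18820 genes.

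Differences were tested two-sided in limma 3.58.1 (R 4.3.3) on log2(intensity + 16), with 4 group means, 8 residual degrees of freedom and Benjamini-Hochberg adjustment over all 18820 genes at 0.05. Fits were tested on simulated data. Alternatives covered scaling, offset, dim genes, probe set choice, prior, array weights, replicate number, sex read from the arrays, the methods' t-test and each array left out. Array means were 147 to 168 in Tk2-/- heart and 202 to 252 elsewhere; 3 arrays a group limit the precision.

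The genes and lists were chosen with earlier results of these data known. Every gene is named; values in each array are given for genes that were not dim and had the largest differences or signals, and for others that were called or that an array set apart; those others were chosen after their values were seen. Promoter windows came from RefSeq. Figures were drawn in Matplotlib 3.10.9 (Python 3.11.15).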

Additional observations from a re-analysis of the deposited data

Results flagged for a closer look

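For 9 genes the genotype effect differed between skeletal muscle and heart by limma's test of the difference itself, each given as the muscle effect minus the heart effect in log2(signal + 16). The values were 2.83 for Cxcl13, 1.49 for Ccl9, 1.42 for Cxcl12, 1.40 for Ccl6, 0.85 for Ackr2, 0.59 for Ccl11, 0.57 for Cxcl16, 0.57 for Ccl2 and 0.56 for Ccl3. Of all genes 41.3% passed the same test in this direction, and the median over all genes was 0.30. After quantile normalization within each tissue the median was 0.0051 and Ccl6, Ccl9 and Ackr2 still passed, at 1.11, 1.003 and 0.73. Groups of 3 arrays were not tested for outlying samples.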

How the results depend on the processing

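Across 26 genotype differences of 13 genes, 19 were called. Cxcl9 and Cxcl16 in both tissues, Ccl6 in muscle and Ccl9, Cxcl12, Ccl11, Ackr3, Cx3cr1 and Cxcr4 in heart kept their call in every fit without a single array. The Ccl6 difference in heart turned to 0.038 under upper-quartile scaling. Under that scaling the heart calls of Ccl11 (-0.23, adjusted p = 0.0509) and Cxcr4 (-0.37, adjusted p = 0.0554) were lost. So were those of Ackr3 (-0.10, adjusted p = 0.525) and Cx3cr1 (-0.42, adjusted p = 0.109). The methods' t-test also lost Ackr3 (adjusted p = 0.0803) and Cx3cr1 (adjusted p = 0.116) in heart. Higher in Tk2-/- heart were 6 of the 53 genes under median centring, 18 under upper-quartile scaling, 3 under quantile normalization (over 12 arrays or within tissue), 1 with an offset of 1, 1 with dim genes left out, 2 with a trend and robust prior, 4 with array weights and 2 with sex as covariate, against 0 on the deposited values; lower in heart were 4 under upper-quartile scaling, against 15. Higher in Tk2-/- muscle were 3 with dim genes left out, 3 with the muscle samples alone, 1 with the methods' t-test and 2 without both muscle arrays that stood apart (chosen after seeing the data), against 5; lower were 11 with array weights, 0 with the methods' t-test after adjustment (12 at an unadjusted p under 0.05) and 2 without both arrays, against 7. On the deposited values the genotype difference was more positive in muscle than in heart for 9 genes and more negative for 0. The first count was 5 under median centring, 3 under upper-quartile scaling, 4 under quantile normalization over 12 arrays and 3 within tissue. The second was 2, 8, 1 and 1 under the same scalings and 2 with array weights. Higher in Tk2+/+ muscle than heart were 6 under median centring, 8 under quantile normalization over 12 arrays, 9 with dim genes left out and 8 with the methods' t-test, against 24; lower were 7 under median centring, against 3. Leaving out 1 array gave 1 to 5 higher and 2 to 8 lower in muscle, and 0 to 3 higher and 13 to 17 lower in heart. The genotype difference was then more positive in muscle than in heart for 6 to 11 genes and more negative for 0 to 1. Between the Tk2+/+ tissues, 15 to 25 were then higher and 3 to 4 lower in muscle than in heart. Dim genes numbered 26 at the lower limit tried and 43 at the higher, against 35.

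With the replicate number as a replicate block, 5 genes were higher and 9 lower in muscle and 0 higher and 17 lower in heart. Deviations of same-numbered Tk2-/- and Tk2+/+ arrays correlated at -0.26 to 0.099, and they were closest to their own number in 2 of 3 muscle and 0 of 3 heart cases. Between muscle and heart the correlations were 0.074 to 0.24 in Tk2+/+ mice, 3 of 3 closest to their own number, and -0.16 to -0.097 in Tk2-/- mice, 0 of 3. The sources used here do not say whether a number marks the same mouse in both tissues. Xist was 1.45 in Tk2+/+ muscle replicate 1 and 1500 in Tk2+/+ heart replicate 1. It was 1.6 in Tk2-/- muscle replicate 2 and 982 in Tk2-/- heart replicate 2. At these numbers the arrays, as labelled, differed in sex and so in mouse, and a fit with a shared animal joins different mice there. With the number as a shared animal, the genotype difference was more positive in muscle than in heart for 8 genes and more negative for 0. In that fit 23 were higher and 3 lower in Tk2+/+ muscle than heart.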
